A study of Mus musculus with 3 samples.

Results

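The genes described here encode molecular chaperones and protein folding enzymes. Their rule matches gene symbols: heat shock proteins (Hsp), J-domain cochaperones (Dnaj), chaperonin subunits (Cct2 to Cct8 and Tcp1), FK506-binding proteins (Fkbp, without Fkbp5), cyclophilins (Ppia to Ppih), protein disulfide isomerases (Pdia), Bag cofactors (Bag1 to Bag6), calreticulin (Calr) and calnexin (Canx). Of 6795 genes with a probe of a single symbol, 67 matched. They had 77 probes, all were tested, and none was removed by a filter.

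Total RNA was measured on 3 spotted 2-colour arrays. Each array carried both RNAs, and each deposited value is the log ratio of the 2 dyes at a probe. One RNA came from thymocytes of wild-type B6 mice purified for high surface CD69, a protein that thymocytes raise when their T cell receptor signals. The other came from thymocytes of Zap70-/- mice, which lack a kinase of that signal, and these cells were not separated, although the titles call them CD69lo. Age, sex, the number of animals in each RNA and whether the arrays came from separate mice are not given in the labels, so a p-value here reflects array-to-array spread alone, possibly of a technical kind. Genotype and purification differ together between the RNAs and cannot be told apart.

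Ratios are given as CD69hi over Zap70-/-. The dyes were swapped: CD69hi RNA was in Cy3 on the first pair of arrays (1 and 2) but in Cy5 on array 3. Array 3 alone has that orientation, so the dye cannot be told apart from array 3 itself. Deposited values were read as Cy5 over Cy3, and the sign was turned on the former pair. That reading is likely but not stated in the labels, and with the opposite reading every sign below would turn. It rests on Rag1 (-1.19 ± 0.36, SD, n = 3) and Dntt (-1.05 ± 0.71), genes of immature thymocytes. Values are taken as log2, so 1 stands for a 2-fold difference. No source states the base, and a fold change would be larger if the values were natural logarithms. Among lists of defining markers, those of T cells had a median of 0.03 over 6 genes (2 rose, Cd5 at 4.75 ± 0.43 and Cd6 at 2.59 ± 0.12, and 0 fell). Those of immature thymocytes had -1.09 over 6, but Rag1 and Dntt, on which the direction rests, are among them. Markers of dividing cells had -1.47 over 12 (6 fell, 0 rose) and those of macrophages and dendritic cells 2.11 over 11 (8 rose, 0 fell). Medians were -0.94 for 7 granulocyte genes (1 fell, 0 rose) and 0.41 for 7 of B cells (1 rose, 0 fell). They were 0.06 for 4 erythroid genes and -0.11 for 5 of thymic epithelium, where 0 rose and 0 fell. In bulk RNA, fewer cells of a type and less RNA per cell cannot be told apart.

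Chaperones bind unfolded or partly folded proteins and keep them from aggregating. Hsp70 proteins work in cycles of ATP use that J-domain proteins start and nucleotide exchange factors, such as the Bag and Hsp110 proteins, end. Hsp90 acts late, on clients such as steroid receptors and kinases, and the ring-shaped chaperonins enclose substrates, with actin and tubulin the best known substrates of the cytosolic ring, TRiC. In the endoplasmic reticulum (ER), BiP, the lectins calnexin and calreticulin and the disulfide isomerases fold membrane and secreted proteins, among them the chains of the T cell receptor. FK506-binding proteins and cyclophilins are proline isomerases, and Fkbp1a in complex with the drug FK506 blocks calcineurin.

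These 3 promoters are shown because they belong to the member with the largest mean ratio (Hspa1a), the ER chaperone with the largest (Hspa5) and the only chaperone that passed the test (Tcp1). The sequences are RefSeq's (GRCm38.p6), from 250 bases before to 50 after the gene start, and read 5′ to 3′ on the gene's strand. Capitals mark CCAAT on either strand and, in Hspa5, the CCACG that completes an ER stress element, the letters through which the unfolded protein response acts on many ER chaperone genes. The positions are chr17:34972107-34972406 (minus strand), chr2:34771840-34772139 (plus strand) and chr17:12916079-12916378 (plus strand).
Hspa1a: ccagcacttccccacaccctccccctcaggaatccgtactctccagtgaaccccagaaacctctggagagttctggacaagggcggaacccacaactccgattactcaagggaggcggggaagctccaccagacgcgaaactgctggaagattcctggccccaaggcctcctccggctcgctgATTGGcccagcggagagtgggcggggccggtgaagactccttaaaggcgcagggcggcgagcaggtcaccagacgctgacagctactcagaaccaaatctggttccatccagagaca
Hspa5: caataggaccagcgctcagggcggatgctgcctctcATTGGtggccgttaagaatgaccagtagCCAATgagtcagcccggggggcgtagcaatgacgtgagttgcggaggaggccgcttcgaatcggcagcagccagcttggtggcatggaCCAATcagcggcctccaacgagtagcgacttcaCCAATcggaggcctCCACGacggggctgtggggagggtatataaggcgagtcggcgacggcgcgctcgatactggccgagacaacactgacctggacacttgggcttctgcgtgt
Tcp1: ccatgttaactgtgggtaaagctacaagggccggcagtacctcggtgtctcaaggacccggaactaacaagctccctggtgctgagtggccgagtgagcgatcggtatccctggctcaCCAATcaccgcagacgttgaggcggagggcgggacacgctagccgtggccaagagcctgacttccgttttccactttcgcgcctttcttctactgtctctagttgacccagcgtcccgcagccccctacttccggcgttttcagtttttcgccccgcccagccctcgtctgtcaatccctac

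Most of the 67 genes lay near a ratio of 0. For 56 of them (83.6%) the mean was within 0.5 of 0 on the log2 scale, against 80.3% of all 8905 features. Their median was -0.10, against 0.01 over all features, and single means ran from -1.28 (Hspg2) to 1.91 (Hspa1a). In the fit across all features (limma, Benjamini-Hochberg adjusted p of at most 0.05), 2 of the 67 passed, Tcp1 and Hspg2, where 6.94% of all features passed. Both fell in CD69hi RNA, the direction of 2.81% of all features. No member rose (0 of 67), where 4.13% of all features rose. When p is not adjusted, at the same 0.05, 6 of the 67 were higher and 10 lower. Of all 8905 features, 1069 were higher and 1014 lower in that way. A common sign on all 3 arrays was found for 30 members, 18 below 0 and 12 above, which is 44.8%, against 47.0% of all features. A common sign and a size of 2-fold or more on each array held for 1 member, Hspg2, and for 2.84% of all features. The members' shares by adjusted p, common sign and size were therefore near or below those of all features. Means below 0 were more frequent among members, 43 of 67 against 4330 of 8905 features. On arrays 1, 2 and 3, 43, 43 and 31 members were below 0, against 4423, 4426 and 4431 features.

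**Figure D1:**
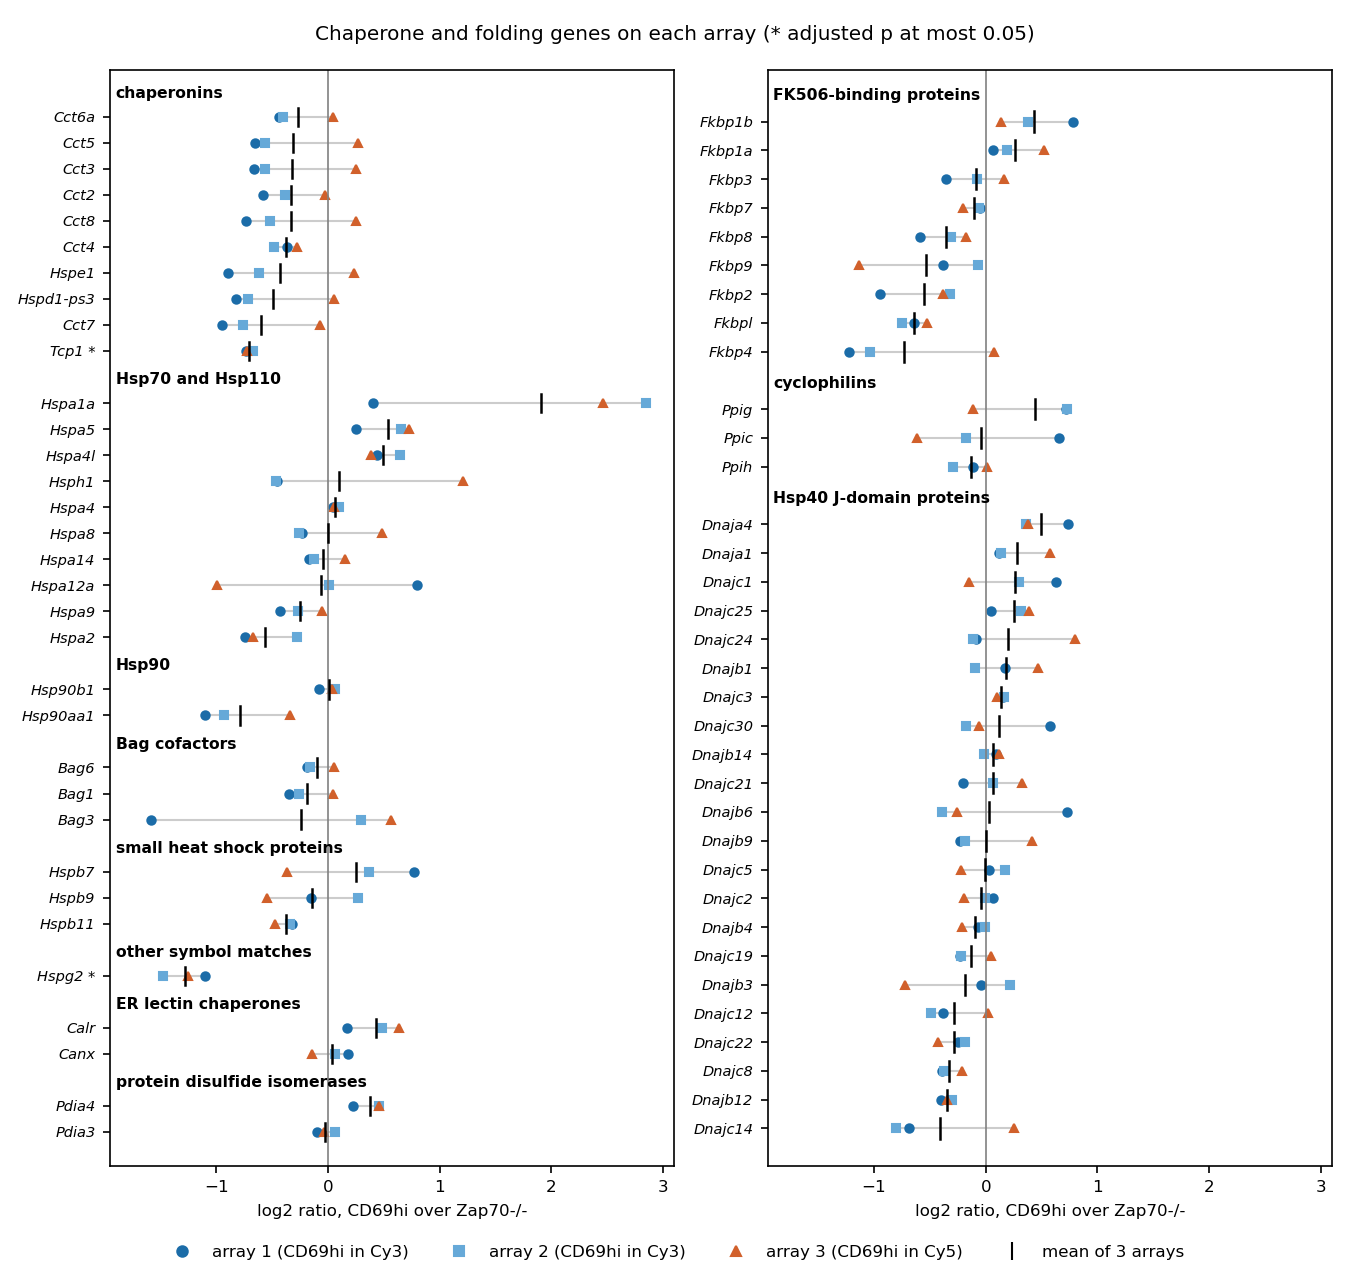
The log2 ratio (CD69hi over Zap70-/-) of each of the 67 genes on the 3 arrays, by family, with circles and squares for arrays 1 and 2, triangles for array 3 and a black bar for the mean. Asterisks mark Tcp1 and Hspg2, which passed, and Hspa1a lies farthest to the right at 0.41, 2.85 and 2.47.

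All 10 chaperonin genes had a mean below 0, with a family median of -0.35, and 1 gene passed. Over all 8905 features, 4330 means were below 0 and 6.94% passed. Tcp1, the α subunit of the TRiC ring, had log2 ratios of -0.74, -0.67 and -0.72 on arrays 1, 2 and 3. The 3 arrays lay closer together for it than for most features, whose median SD was 0.27. Its mean of -0.71 ± 0.03 (SD, n = 3) is a 1.64-fold lower level in CD69hi RNA (limma adjusted p = 0.044, 95% interval -1.03 to -0.39). The call ended when array 1, 2 or 3 was left out (adjusted p = 0.23, 0.33 and 0.051) and with the arrays scaled to a common spread (adjusted p = 0.0501).

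The other 7 TRiC subunits did not pass. Cct7, its η subunit, had ratios of -0.95, -0.76 and -0.07, so arrays 1 and 2 were low and array 3 lay near 0. Without array 3 it passed (-0.86, adjusted p = 0.048), but then every array left has CD69hi RNA in Cy3, so dye and ratio cannot be told apart. Cct8 had -0.74, -0.52 and 0.25, Cct5 -0.65, -0.57 and 0.27, and Cct3 -0.66, -0.56 and 0.26. For these 3 subunits the sign turned on array 3. Cct6a (-0.44, -0.40 and 0.05) and Cct2 (-0.58, -0.38 and -0.03) were low on arrays 1 and 2 and near 0 on array 3. Cct4 was below 0 on every array (-0.36, -0.48 and -0.28), although 1 of its 2 probes read 0.10 on array 3. All 8 TRiC subunits were thus below 0 on arrays 1 and 2, and 4 of them on array 3. Of all 8905 features, 4423, 4426 and 4431 were below 0 on arrays 1, 2 and 3.

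The mitochondrial chaperonin showed the same split. Hspe1, the co-chaperonin Hsp10, had log2 ratios of -0.89, -0.62 and 0.23, and the probe annotated as Hspd1-ps3, a pseudogene of the Hsp60 gene, -0.82, -0.72 and 0.06. This probe cannot be told apart from one that binds Hspd1 itself. Both genes were low on arrays 1 and 2 and at or above 0 on array 3, and their means did not pass (-0.42 ± 0.59 and -0.49 ± 0.48, SD, n = 3).

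Over the 10 chaperonin genes, arrays 1, 2 and 3 had median ratios of -0.70, -0.56 and 0.05, while all features had medians of 0.002, 0.003 and 0.003. With each dye orientation weighted equally, all 10 means stayed below 0 and their median was -0.26. The dividing cell markers, which also were lower in CD69hi RNA, had medians of -1.54, -1.93 and -0.88 on the 3 arrays. The part of the dye and of cell division in the chaperonin ratios was not tested.

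**Figure D2:**
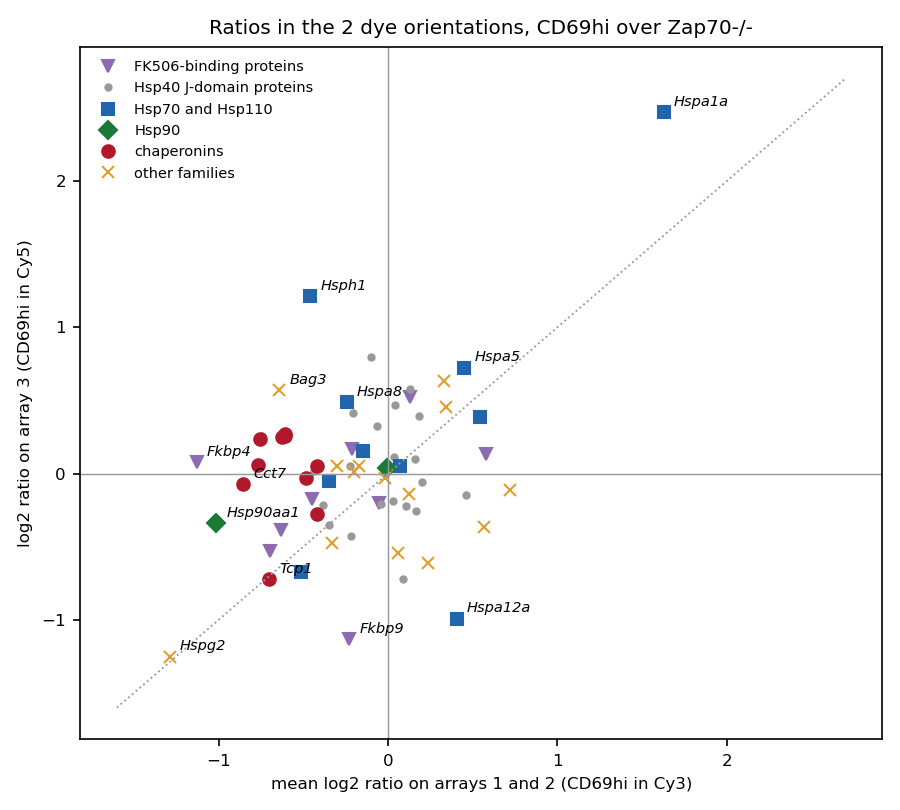
Each member's mean log2 ratio on arrays 1 and 2 (x axis, CD69hi RNA in Cy3) against its ratio on array 3 (y axis, CD69hi RNA in Cy5), coloured by family, with equal values on the dotted line. Tcp1 and Hspg2 lie on the line, most chaperonins lie above it, and Hsph1 is below 0 on arrays 1 and 2 and at 1.21 on array 3.

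The Hsp70 and Hsp110 family of 10 genes held the highest mean of all members, with a family median of 0.03. In it 0 genes passed the threshold, where 6.94% of all 8905 features did. By unadjusted p, 3 of the 10 were higher and 1 lower, against 1069 and 1014 of all features. Hspa1a, the heat-inducible cytosolic Hsp70, had log2 ratios of 0.41 on array 1, 2.85 on array 2 and 2.47 on array 3. All lay above 0, but array 1 was far below the others, which use both dye orientations. The mean was 1.91 ± 1.31 (SD, n = 3), a 3.75-fold higher level that did not pass (limma adjusted p = 0.11, 95% interval 0.58 to 3.23). Without array 1 it passed at 2.66 (adjusted p = 0.018). Both probes of the gene showed this order, with 0.50, 3.27 and 2.79 for the first and 0.31, 2.43 and 2.14 for the other. Neither passed when fitted alone (adjusted p = 0.10 and 0.12). Macrophage and dendritic cell markers, which rose in 8 of 11 cases, had medians of 1.97, 2.22 and 2.09 on arrays 1, 2 and 3. Their part in the ratio was not tested. Hspa1a and its near-identical neighbour Hspa1b share most of their sequence, and a spotted cDNA probe may bind both.

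**Figure D3:**
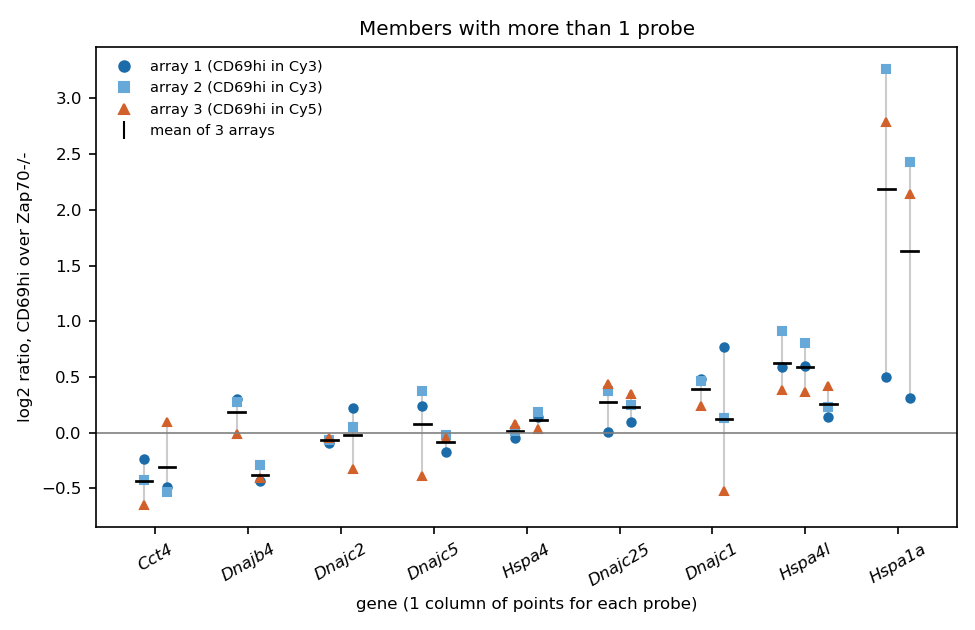
The log2 ratio (CD69hi over Zap70-/-) on each array for the 9 members with more than 1 probe, with 1 column of points for each probe and a bar for its mean. Both Hspa1a probes are at 0.31 and 0.50 on array 1 and above 2 on arrays 2 and 3, and the probe means of no member differed by more than 0.57.

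Other genes of the Hsp70 system varied between arrays in several ways. Hsph1, the exchange factor Hsp110, had ratios of -0.46, -0.47 and 1.21. Here array 3 stood apart, and not array 1 as for Hspa1a. Hspa8, the constitutive cytosolic Hsp70, had -0.23, -0.26 and 0.49, also with the sign turned on array 3. Dnajb1, the Hsp40 partner of Hspa1a, had 0.18, -0.10 and 0.47 (mean 0.18 ± 0.28, SD, n = 3). Bag3, an exchange factor induced by stress, had -1.59, 0.30 and 0.57, the widest negative excursion of the members on a single array. Like Hspa1a it was lowest on array 1. Its mean was -0.24 ± 1.17.

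Hspa4l, a testis-rich relative of Hsp110, was above 0 on every array (0.44, 0.65 and 0.39), and so was each of its 3 probes. The mean of 0.49 ± 0.14 (SD, n = 3) did not pass (adjusted p = 0.11). Hspa4, its closest relative in the set, had 0.04, 0.10 and 0.05, with a 95% interval for the mean from -0.26 to 0.39. Hspa2, a germ cell Hsp70, was below 0 on every array (-0.75, -0.28 and -0.67), with the lowest mean of the family, -0.56 ± 0.25. Hspa9, the mitochondrial Hsp70, had -0.43, -0.27 and -0.05, and Hspa14, which acts at the ribosome, -0.17, -0.13 and 0.15. Hspa12a, a distant relative, spread from 0.80 on array 1 through 0.01 on array 2 to -0.99 on array 3. For it the 2 arrays of the same dye orientation already differed by 0.79.

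Of the Hsp90 genes, 2 were measured. Hsp90aa1, the inducible cytosolic form, had log2 ratios of -1.10, -0.93 and -0.34. It was low on every array, most on arrays 1 and 2, and its mean of -0.79 ± 0.40 (SD, n = 3) did not pass (limma adjusted p = 0.091, 95% interval -1.29 to -0.29). It passed with a dye term in the fit (-0.68, adjusted p = 0.045), which raised calls over all features from 618 to 1076. Array 3 alone has its dye orientation, so a fit with a dye term matches it exactly. The residual spread then comes only from the difference between arrays 1 and 2, so passing with a dye term is no stricter check. Hsp90aa1 also passed without array 3 (-1.01, adjusted p = 0.039), where a single dye orientation is left. Without array 1 or 2 it did not pass (adjusted p = 0.36 and 0.43). Hsp90b1, the ER form GRP94, stayed near 0 (-0.08, 0.06 and 0.04), with an interval from -0.32 to 0.34.

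Fkbp4, a steroid receptor cochaperone that binds Hsp90, had ratios of -1.22, -1.04 and 0.08, the lowest mean of its family (-0.73 ± 0.70, SD, n = 3, adjusted p = 0.23). It passed without array 3 (-1.13, adjusted p = 0.036), again with a single dye orientation. Fkbpl, a relative with the same kind of Hsp90-binding repeats, was low on all 3 arrays (-0.64, -0.75 and -0.53). Its mean of -0.64 ± 0.11 did not pass (adjusted p = 0.061) and passed with a dye term (-0.61, adjusted p = 0.046), but in no fit that left out an array. Fkbp5, which the symbol rule left out, is a paralogue of Fkbp4 induced by glucocorticoids and lay at -3.21, -3.05 and -1.85. The glucocorticoid receptor gene Nr3c1, whose protein is a classic Hsp90 client, had -1.74, -1.79 and -1.88 and fell (-1.80 ± 0.07, adjusted p = 0.0089). It passed without each array in turn.

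The other 7 FK506-binding protein genes did not pass. Fkbp2, an ER proline isomerase, was below 0 on every array (-0.95, -0.32 and -0.38), and so was Fkbp8, a mitochondrial membrane protein that binds Bcl-2 (-0.59, -0.31 and -0.18). Fkbp9, another ER form, reached -1.13 on array 3 after -0.38 and -0.07, and Fkbp7 stayed between -0.20 and -0.05. Fkbp1b was highest in the family (0.78, 0.38 and 0.14, mean 0.43 ± 0.32, SD, n = 3). Fkbp1a, the FKBP12 that binds FK506, followed with 0.06, 0.19 and 0.52, and Fkbp3, a nuclear form, had -0.35, -0.07 and 0.17. The family median was -0.36, with 7 of 9 means below 0, against 4330 of 8905 over all features.

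Among the ER chaperones, Hspa5, Calr and Pdia4 were above 0 on every array without passing. Hspa5, the ER Hsp70 BiP, had log2 ratios of 0.25, 0.65 and 0.72, a mean of 0.54 ± 0.26 (SD, n = 3, limma adjusted p = 0.13, 95% interval 0.14 to 0.95). Calr, a lectin chaperone of glycoproteins, had 0.18, 0.48 and 0.63 (mean 0.43 ± 0.23, adjusted p = 0.18), and Pdia4, the disulfide isomerase ERp72, 0.22, 0.46 and 0.46 (mean 0.38 ± 0.14, adjusted p = 0.18). In each of the 3 genes array 1 was lowest. Canx, the membrane-bound lectin (0.18, 0.07 and -0.14), and Pdia3, the isomerase that works with both lectins (-0.10, 0.06 and -0.03), stayed near 0. Their 95% intervals ran from -0.32 to 0.39 and from -0.35 to 0.31. Dnajc3, an ER cochaperone of BiP, had 0.15, 0.17 and 0.10, and Dnajb9, another, -0.23, -0.19 and 0.42.

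The ER stress element (CCAAT, any 9 bases, then CCACG) was searched on both strands in the promoters of the 56 members that RefSeq's table holds. It was found in 5 of the 56 genes (8.93%) and in 0.137% of all 27025 genes of the table (0.119% of its 32851 promoters of this length). The 5 were Hspa5, Calr, Dnajc3, Canx and Hsp90b1, and they are shown because all 5 encode ER proteins and yet had means from 0.01 to 0.54. Each is written as the motif reads, with its fixed letters in capitals.
Hspa5 (mean log2 ratio 0.54): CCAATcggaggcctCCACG
Calr (0.43): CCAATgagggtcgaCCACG
Dnajc3 (0.14): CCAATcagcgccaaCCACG
Canx (0.04): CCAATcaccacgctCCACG
Hsp90b1 (0.01), farther site: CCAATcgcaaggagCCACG
Hsp90b1, nearer site: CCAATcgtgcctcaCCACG

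The Hspa5 match covers positions -65 to -47 from the gene start, the Calr match -162 to -144, the Dnajc3 match -105 to -87 and the Canx match -145 to -127. The Hsp90b1 matches cover -212 to -194 and -107 to -89. A match describes letters and not a site in use. A heat shock element, the letters that heat shock factors bind, was searched on both strands as GAA, any 2 bases, TTC, any 2 bases and GAA. It was found in 3 of the 56 genes (5.36%) and in 0.662% of all genes (0.603% of promoters). The 3 genes were Hspe1, Hsph1 and Dnajb6, and each had opposite signs on different arrays. They are shown for comparison with Hspa1a, which holds no match to all 3 units in this window. Its sequence does hold the first part, GAA, 2 bases and TTC, and partial matches were not counted.
Hspe1: GAAccTTCcgGAA
Hspe1, overlapping, other strand: GAAggTTCtaGAA
Hsph1: GAActTTCcaGAA
Dnajb6: GAAtcTTCcgGAA

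CCAAT alone occurs in 44.6% of the 56 genes and in 41.1% of all genes (37.4% of promoters). It also forms the start of each ER stress element and overlaps it.

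The J-domain proteins were the largest family, with 22 genes, and 0 passed (limma, 1 higher and 1 lower by unadjusted p). Every mean lay within 0.5 of 0, from -0.41 to 0.49, and the family median was 0.01. Dnaja4, a cytosolic Hsp70 partner, was highest, with 0.74, 0.36 and 0.38 (mean 0.49 ± 0.21, SD, n = 3, adjusted p = 0.13). Dnaja1, which works with Hspa8, had 0.12, 0.14 and 0.58, and Dnajc25, with 2 probes, 0.05, 0.31 and 0.39. Both were above 0 on all arrays. At the low end Dnajc14, an ER membrane protein, had -0.69, -0.80 and 0.26, so its sign turned on array 3. Dnajb12, an ER membrane cochaperone, was below 0 with little spread (-0.40, -0.30 and -0.35), and Dnajc8, a splicing-associated protein, also was (-0.39, -0.38 and -0.21).

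In other J-domain genes the arrays disagreed. Dnajb6, which limits aggregation, had 0.73, -0.39 and -0.25, and here array 1 stood apart. Dnajc24, of the diphthamide pathway, read 0.80 on array 3 after -0.09 and -0.11. Dnajb4 had 2 probes with means of 0.19 and -0.38, the widest disagreement between probes among the members. Dnajc5, the cysteine string protein, had 2 probes at 0.08 and -0.08, and Dnajc2, a ribosome-associated cochaperone, 2 at -0.07 and -0.02. The counts of J-domain genes with a common sign were 4 above 0 and 4 below, with 14 mixed.

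The remaining families held few genes. Of the cyclophilins, Ppig, a nuclear form with a serine- and arginine-rich tail, had 0.72, 0.73 and -0.11 and did not pass (mean 0.44 ± 0.48, SD, n = 3, adjusted p = 0.30), but passed without array 3 (0.72, adjusted p = 0.049). Ppic, a secretory pathway form, went from 0.65 on array 1 to -0.61 on array 3, and Ppih, a splicing cyclophilin, stayed near 0 (-0.11, -0.29 and 0.01). Of the Bag cofactors, Bag1 (-0.35, -0.26 and 0.05) and Bag6 (-0.19, -0.16 and 0.05) differed little from 0. Of the genes named as small heat shock proteins, Hspb7, a muscle form, had 0.77, 0.37 and -0.37, Hspb9, a testis form, -0.15, 0.27 and -0.54, and Hspb11 -0.32, -0.34 and -0.47. Hspb11, known as the intraflagellar transport protein IFT25, was the only one of the 3 with a common sign.

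Hspg2 matched the symbol rule but is no chaperone. It encodes perlecan, a proteoglycan of basement membranes. Its ratios of -1.10, -1.48 and -1.25 were low on all 3 arrays, and it fell 2.42-fold (mean -1.28 ± 0.19, SD, n = 3, limma adjusted p = 0.020). The call ended without array 1 (adjusted p = 0.061) and without array 2 (adjusted p = 0.12). Without it, Tcp1 was the only member that passed.

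Across the 67 genes, arrays 1 and 2 correlated at r = 0.61, arrays 2 and 3 at r = 0.55 and arrays 1 and 3 at r = 0.12. Over all features these were 0.62, 0.41 and 0.25. The genes share the arrays and are not independent, and array 2 enters both higher values. Array 3 lay above both other arrays for 36 members and below both for 18. The same count was not made over all features, so it cannot be read as a trait of these genes.

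Genes of neighbouring folding and quality control pathways were read from the same fit, leaving out members. In that fit 6.94% of all 8905 features passed, 4.13% higher and 2.81% lower. By unadjusted p, 1069 of the 8905 were higher and 1014 lower. Of 13 cochaperones of Hsp90 and Hsp70, 0 passed (limma, 1 higher and 1 lower by unadjusted p), and the median was -0.11. Ahsa2, a relative of the Hsp90 activator Ahsa1, had 0.64 ± 0.08 (SD, n = 3) and Nudc, a cochaperone of Hsp90, -0.61 ± 0.23. Both passed with a dye term (limma adjusted p = 0.045 and 0.049). Nudc also passed when array 3 was left out (adjusted p = 0.048), with a single dye orientation. Of 7 Hsp90 clients, 2 fell, Nr3c1 and the kinase Pim1 (-1.25 ± 0.33, adjusted p = 0.030). Pim1 did not pass when array 1 or 2 was left out (adjusted p = 0.11 and 0.15). By unadjusted p, 1 client was higher and 2 were lower, and 3 of the 7 means were above 0. Hsbp1l1, the 1 measured gene of the heat shock factor list, had 0.19 ± 0.03.

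Of 9 prefoldin, tubulin-folding and TRiC substrate genes, 0 passed (1 higher and 2 lower by unadjusted p), with a median of -0.21. The tubulin Tubb5, a TRiC substrate, had -1.02, -1.07 and -0.21, with arrays 1 and 2 lowest, as in the chaperonins. Actin, Actb, the other classic substrate, was above 0 (0.41, 0.48 and 1.11). Neither passed (limma adjusted p = 0.12 each). With a dye term both passed (adjusted p = 0.044 for Tubb5 and 0.035 for Actb). Tubb5 also passed when array 3 was left out (adjusted p = 0.035), with a single dye orientation.

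Of 26 proteasome subunits, 0 passed (0 higher and 4 lower by unadjusted p), and their median was -0.26. As in the chaperonins, array 3 differed from the other arrays, with medians of -0.46, -0.35 and 0.03 on arrays 1, 2 and 3. Psma6 had the lowest mean of the list (-0.64 ± 0.35, SD, n = 3), and Psmd7 had -0.50 ± 0.19. Of 11 genes of mitochondrial import and protein quality control, 0 passed (0 higher and 2 lower unadjusted), with a median of -0.15, and Tomm40 (-0.49 ± 0.11) and the protease chaperone Clpx (-0.41 ± 0.18) were below 0 on all arrays.

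**Figure D4:**
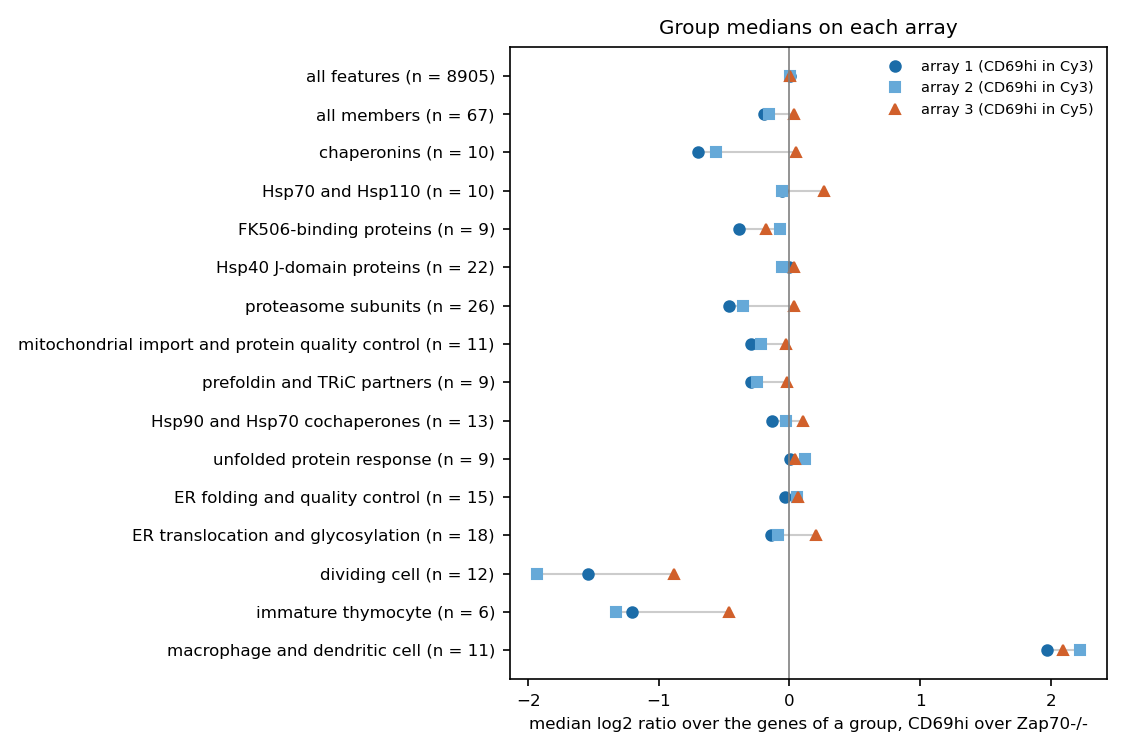
Median log2 ratio (CD69hi over Zap70-/-) over the genes of each group on each array, for member families, neighbouring pathways and marker lists. The chaperonins and proteasome subunits lie below 0 on arrays 1 and 2 and near 0 on array 3, and all features lie at 0 on the 3 arrays.

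In the ER, 1 of 15 folding and quality control genes passed. Sel1l, the partner of the ubiquitin ligase that clears misfolded ER proteins, had 0.90, 0.98 and 0.77 and rose (0.88 ± 0.10, SD, n = 3, limma adjusted p = 0.032), a call lost when array 1 (adjusted p = 0.15) or array 2 was left out (adjusted p = 0.25). Its list had a median of -0.03. Of 9 genes of the unfolded protein response, 0 passed (1 higher and 2 lower by unadjusted p), with a median of -0.12. Eif2ak3, the stress sensor PERK, had -0.55, -0.65 and -0.73 (adjusted p = 0.058) and Edem1, which sends misfolded glycoproteins to degradation, -1.02, -0.98 and -0.48 (adjusted p = 0.061). These were the only 2 of the 9 genes below 0 on every array. Of the others, 4 lay above 0 on every array, as Hspa5, Calr and Pdia4 did, and 3 had mixed signs. Eif2ak3 and Edem1 passed with a dye term (adjusted p = 0.043 and 0.037). Edem1 also passed when array 3 was left out (adjusted p = 0.036), with a single dye orientation.

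Of 18 ER translocation and glycosylation genes, 0 passed (0 higher and 0 lower by unadjusted p), with a median of -0.02, and the 2 with the largest moderated t were Dad1 (0.47 ± 0.39, SD, n = 3) and Srp9 (-0.19 ± 0.16). Of the 4 genes of class I peptide loading that are not members, 0 passed (2 higher and 1 lower unadjusted), with Tap1 at 0.63 ± 0.14 and B2m at 0.73 ± 0.35, which passed with a dye term (limma adjusted p = 0.0497). Of 4 further proline isomerases, 0 passed (0 higher and 1 lower unadjusted), with Ppil2 at -0.47 ± 0.24 and Ppil1 at -0.52 ± 0.60. Of 6 genes of calcineurin and NFAT, the pathway that the Fkbp1a and FK506 complex blocks, Nfatc1 rose (1.57 ± 0.21, adjusted p = 0.014) and Nfatc3 fell (-1.53 ± 0.23, adjusted p = 0.015). The Nfatc1 call was lost when array 2 was left out (adjusted p = 0.062), and the Nfatc3 call when array 1 (adjusted p = 0.056) or array 2 was (adjusted p = 0.067).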

How the data were processed

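The authors deposited a log ratio, taken as log2, for each of 9596 probes on each array. No value was missing. How the authors corrected background, normalized or filtered spots is not stated in the labels. Intensities were not used here, and dim spots were therefore kept. The number of arrays, 3, limits the precision.

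Of the probes, the platform annotation gives 7486 a single gene symbol, 483 several and 1627 none. Probes of 1 symbol were averaged, which gave 8905 features. Before turning, array 3 correlated at r = -0.25 with array 1 and r = -0.40 with array 2, which correlated at r = 0.61 with each other. The labels state the dyes, so arrays 1 and 2 were multiplied by -1.

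The mean ratio was tested against 0 in R 4.3.3 with limma 3.58.1 (lmFit and eBayes, 2 residual and 2.75 prior degrees of freedom), with two-sided p-values adjusted by Benjamini-Hochberg over 8905 features. The code was tested on simulated data. A ± gives the SD over arrays. Named were members that passed, the highest and lowest of each family, members without a common sign that spanned over 1, and in each pathway list up to 4 genes that passed or else the 2 with the largest moderated t. Other members were named after their values were seen. Members and lists were chosen with earlier results of these data known. Alternatives were leaving out each array, a dye term, scaling, median centring, robust shrinkage, the median of probes, single probes and array 3 unturned. Spotted probes can bind related transcripts, so values within a family may be mixed.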

Additional observations from a re-analysis of the deposited data

How the results depend on the processing

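Among the 67 genes, 2 passed (limma, adjusted p of at most 0.05), and the count ran from 0 to 6 when 1 array was left out, with 0 to 5 lower and 0 to 1 higher. It was 0 without array 2 (5 at an unadjusted p of at most 0.05), 1 without array 1 (Hspa1a) and 6 without array 3 (Cct7, Fkbp4, Hsp90aa1, Hspd1-ps3, Hspg2 and Ppig), where dye bias and ratio cannot be told apart. Tcp1 passed in none of these fits. With a dye term 4 passed, all 4 lower, and with scaled arrays 1, which was lower. With array 3 unturned 0 members passed (7 unadjusted), and 0 of all features (342 unadjusted). Calls over all features ran from 119 to 692 without 1 array and came to 1076 with a dye term, against 618. Of 123 genes of the neighbouring pathways, 5 passed, against 1 to 10 without 1 array, 16 with a dye term and 0 with array 3 unturned (6 unadjusted). The counts of members were the same with median centring, robust shrinkage, the median of probes and single probes. The members' median stayed below 0 under every alternative. The cause of these changes was not tested. Each leave-one-out fit also has fewer arrays, and without array 3 a single dye orientation remains. The dye term fits array 3 exactly, so the residual spread in that fit is only that between arrays 1 and 2. With 3 arrays, missing the threshold does not show that a gene stayed level, and signal over background is unknown.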
